A study of Mus musculus with 6 samples.

Results

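Single-nucleus RNA sequencing counted nuclear RNA molecules as unique molecular identifiers (UMIs) in 6 brains of C57BL/6 S-56 mouse pups, and the nuclei described here were a subset of their astrocytes, chosen by 13 genes. At postnatal day 7 (P7), 5 µl of lysophosphatidic acid (LPA), a signaling lipid of blood, or of vehicle (bovine serum albumin) was injected into the right lateral ventricle, which serves as a model of post-hemorrhagic hydrocephalus, and brains without olfactory bulbs and cerebellum were frozen at P15. Nuclei without the neuronal protein NeuN were sorted, and each of the 3 LPA and 3 vehicle libraries held nuclei of 1 brain. By Xist and Y-linked genes, LPA library 1 and vehicle libraries 1 and 3 were male and the others female. The libraries cover 1 age only, and the model is a single injection of 1 lipid and not of blood.

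A nucleus was selected if its RNA came from 300 genes or more with no more than 1% mitochondrial UMIs, and if 3 UMIs or more fell on Gja1, Aqp4, Ntsr2, Slc39a12 and Fgfr3 together. It could carry no more than 1 UMI each of Slc6a11 with Agt, of Gfap, of Mog with Mag and of Pdgfra with Cspg4, and no UMI of Csf1r. These limits picked 4729 of the 60724 nuclei that passed the 2 quality filters, out of 63383 barcodes. The LPA libraries gave 713, 796 and 705 selected nuclei and the vehicle libraries 566, 980 and 969. UMIs summed over the selected nuclei of a library ranged from 2269615 to 3821683, and levels are given below as CPM, the UMIs of a gene for every 1000000 of such a sum after scaling by edgeR's TMM factors. They are not per length.

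Astrocytes tile the brain, clear glutamate from synapses through the transporters encoded by Slc1a2 and Slc1a3, buffer potassium and wrap vessels with end-feet. They also keep regional programs: astrocytes of the telencephalon carry transcription factors of the early forebrain such as Lhx2, whereas those of the diencephalon, midbrain and hindbrain are known for the GABA transporter Slc6a11, angiotensinogen (Agt) and the glycine transporter Slc6a9. Gfap encodes an intermediate filament that is low in many cortical gray-matter astrocytes and increases in reactive ones. Reactive astrocytes are known to make complement component C4 and to respond to cytokines through STAT3.

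The label given to the selected nuclei, telencephalic-type astrocytes with little Gfap, was only partly borne out by their content. Slc1a2, which encodes the main astrocytic glutamate transporter, was found in 87.9% of selected nuclei, against 53.5% of oligodendrocyte nuclei, which should lack it, and after thinning every nucleus to 1000 UMIs 76.9% against 13.95%. The other marker genes given for these nuclei, Mertk, Grin2c and Hapln1, were found in 71.7%, 47.2% and 24.2% of selected nuclei and in 14.5%, 3.63% and 1.48% of oligodendrocyte nuclei. Median depth was 3352 UMIs in selected nuclei and 5702 in oligodendrocyte nuclei, so the lower shares in oligodendrocytes came at greater depth.

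A large minority of the selected nuclei carried RNA of other cells. Of the 4729, 2041 (43.2%) had at least 3 UMIs over a list of neuronal, meningeal, ependymal, endothelial, choroid plexus or pericyte genes. For these shares of nuclei Ranbp3l, Htr2c, Pdgfrb and Notch3 were left out of the lists, and the neuronal list was a shorter one without Meg3. Sums of list genes in CPM, given below, used the full lists. The same level was reached in 27.6% of oligodendrocyte nuclei. It was reached in 26.2% of nuclei with 2 or more UMIs of Slc6a11 with Agt (Slc6a11-Agt nuclei, described below). Much of the 43.2% was therefore not particular to the selected nuclei. Neuronal UMIs reached this level in 20.1% of selected nuclei, about as often as in Slc6a11-Agt nuclei (19.8%) and oligodendrocyte nuclei (22.4%). Meningeal UMIs, from genes of the fibroblasts that cover the brain, reached it in 18.7%, against 5.47% and 4.22%. Ependymal genes, expressed by the ciliated cells of the ventricle wall, reached it in 9.03%, endothelial genes in 8.54%, choroid plexus genes in 5.37% and pericyte genes in 2.39%. Only 71.4% of selected nuclei had 5 or more Slc1a2 UMIs.

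The meningeal share was lower in every LPA library, at 12.2%, 12.6% and 14.2%, than in the vehicle libraries, at 25.6%, 24.8% and 21.5%, and these values did not overlap. The pericyte share was also lower in every LPA library, at 2.10%, 1.26% and 1.56% against 3.36%, 3.16% and 2.79% with vehicle. The ependymal share did overlap, at 14.03%, 8.54% and 13.05% with LPA and 14.8%, 3.98% and 4.54% with vehicle. Vehicle library 1 stood apart from the others, with 59.2% of its selected nuclei at 5 or more Slc1a2 UMIs, where the other 5 libraries had 70.5% to 76.1%, and with 54.2% carrying UMIs of another cell type. In the ependymal share, both other vehicle libraries lay below all LPA libraries. Total counts of calls in the selected nuclei are given below with and without vehicle library 1. Most counts for gene lists and for other kinds of nuclei are given over all libraries only.

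**Figure D1:**
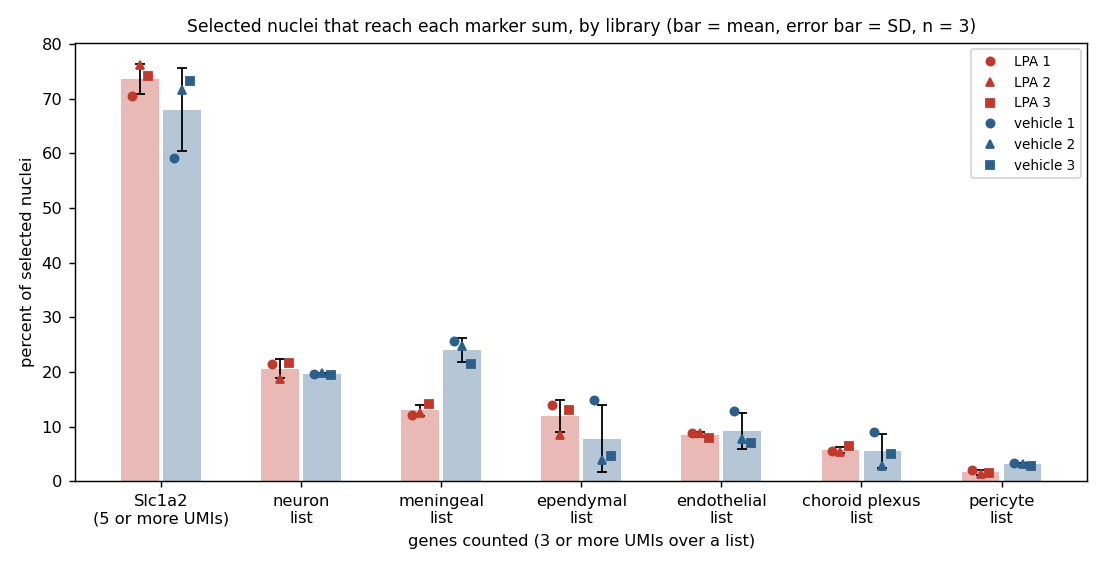
Percent of selected nuclei (y axis) with at least 5 Slc1a2 UMIs, or at least 3 UMIs over the marker list of another cell type (x axis), with 1 point per library and bars and error bars for the mean and SD of 3 libraries. The 3 LPA libraries lie below the 3 vehicle libraries for the meningeal list, and vehicle library 1 is the lowest for Slc1a2 (59.2%).

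Nuclei near the limits differed in how many had 5 or more Slc1a2 UMIs. Among the 1081 nuclei at exactly 3 UMIs of the 5 astrocyte genes, 38.8% had 5 or more Slc1a2 UMIs, and among 1934 nuclei just outside, at 2 UMIs, 19.8% did. On the Slc6a11 and Agt limit the order was the other way, with 58.4% of 2851 nuclei at 0 UMIs, 91.1% of 1878 nuclei at 1 UMI and 96.0% of 1339 nuclei just outside, at 2 UMIs. On the Gfap limit, 68.8% of 4056 nuclei at 0 UMIs, 86.9% of 673 nuclei at 1 UMI and 88.4% of 251 nuclei just outside, at 2 UMIs, had 5 or more Slc1a2 UMIs.

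Library quality moved with treatment. Median depth of the selected nuclei was 3637, 3434.5 and 3630 UMIs with LPA and 3360.5, 3246 and 2859 with vehicle, higher in every LPA library. The median mitochondrial share was lower in every LPA library, at 0.0089%, 0.0242% and 0.0321%, than with vehicle, at 0.0762%, 0.0606% and 0.0676%. Scrublet, which scores likely doublets, marked 12.2%, 12.7% and 15.7% of selected nuclei with LPA and 14.8%, 16.3% and 21.9% with vehicle, which overlapped. The part of depth and mitochondrial RNA in the results was not tested, beyond the thinned values given below. The 6 libraries shared 235 barcodes, none of which was a selected nucleus in any library, and 53 selected nuclei had a barcode that occurred in 2 or more libraries.

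Because of this mixture, a stricter subset is described beside the whole. Its 2644 nuclei had 5 or more Slc1a2 UMIs, fewer than 3 UMIs over the endothelial, pericyte, meningeal, ependymal and choroid plexus lists (without Ranbp3l, Htr2c, Pdgfrb and Notch3) and no Scrublet call, and they are called Slc1a2-rich selected nuclei. The LPA libraries held 408, 500 and 402 of them and the vehicle libraries 255, 558 and 521, with summed UMIs between 763859 and 1716249. This subset was chosen after the composition of the selected nuclei had been seen, and neuronal UMIs still reached 3 in 9.08% of it. The 12 genes of the full neuronal list, led by Meg3, summed there to 3007, 2700 and 2973 CPM with LPA. With vehicle they summed to 2337, 2697 and 2098 CPM, so every LPA library was higher by a narrow margin, with 0 of 11 tested called. The 7 ependymal genes summed to 34.9, 32.3 and 33.8 CPM with LPA and 25.8, 16.2 and 16.3 CPM with vehicle, also without overlap, with 0 of 1 tested called. The part of this RNA in the rises given below for the subset was not tested.

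Among the Slc1a2-rich nuclei the forebrain markers were higher in the selected nuclei. For comparison, 5212 nuclei that met the same limits but had 2 or more UMIs of Slc6a11 with Agt are called Slc6a11-Agt nuclei, of which 3762 were Slc1a2-rich by the same limits. Over all selected nuclei, the marker genes did not separate the 2 kinds: Grin2c, a glutamate receptor subunit, stood at 253 ± 18.1 CPM (SD, n = 6 libraries) against 256 ± 10.2 CPM, and Slc1a2 at 6105 ± 587 CPM against 6343 ± 138 CPM. In the Slc1a2-rich nuclei of both kinds, Grin2c stood at 462 ± 33.1 CPM against 334 ± 24.9 CPM, with the selected nuclei higher in 6 of 6 libraries. These levels describe groups that the rule and the Slc1a2 limit formed, so no test was made of them.

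Hapln1, which links hyaluronan to proteoglycans, stood at 151 CPM in Slc1a2-rich selected nuclei and 89.1 CPM in Slc1a2-rich Slc6a11-Agt nuclei. Mertk, a receptor for the uptake of debris and synapses, stood at 1543 and 1196 CPM. The forebrain factor Lhx2 had a level of 70.7 CPM in the former and 40.0 CPM in the latter, which is 1.77 times as high. Each of these 3 genes was higher in 6 of 6 libraries, and so were the forebrain factors Nr2e1 (1.69 times), Emx2 (1.51 times), Otx1 (1.38 times) and Dmrta2 (1.74 times). The forebrain factor Emx1, at 2.53 and 1.42 CPM, was higher in 4 libraries and lower in 2, with ratios of 0.388 to 5.36 in single libraries, and over all selected nuclei it was higher in 3 and lower in 3.

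Genes of non-telencephalic astrocytes ran the other way in all selected nuclei as well as in the subset. Slc6a9 had a level of 24.9 CPM in selected nuclei and 94.6 CPM in Slc6a11-Agt nuclei, 3.79 times as high, and Itih3, a hyaluronan-binding plasma protein gene, 47.1 and 137 CPM. The Iroquois factors Irx1, Irx2, Irx3 and Irx5, which pattern the diencephalon and regions behind it, were at 0.367 to 3.01 CPM in selected nuclei and at 2.98 to 8.72 CPM in Slc6a11-Agt nuclei, lower in 6 of 6 libraries for each. Otx2, an early factor of forebrain and midbrain that the choroid plexus also expresses, was the exception, with 34.0 CPM in selected nuclei against 18.8 CPM, but with 3.65 CPM against 13.4 CPM in the Slc1a2-rich nuclei. Sox2 was listed at 0 in every library of every kind of nucleus here, while Sox9 stood at 60.2 CPM in selected nuclei.

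**Figure D2:**
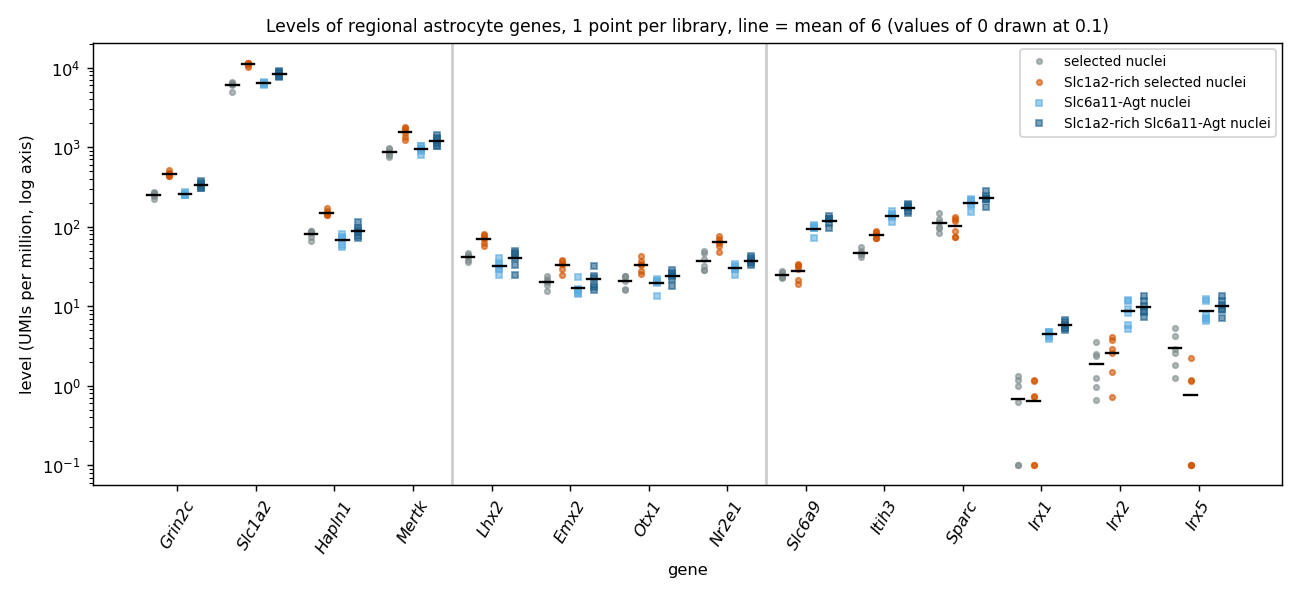
Level of 14 regional astrocyte genes in CPM (log axis), with 1 point per library and a line at the mean of 6, in selected nuclei, Slc6a11-Agt nuclei and the Slc1a2-rich nuclei of both. The 4 marker genes on the left and the 4 forebrain factors in the middle are highest in Slc1a2-rich selected nuclei, and the 6 genes on the right are lower in selected than in Slc6a11-Agt nuclei. Slc1a2, one of the markers, formed the Slc1a2-rich nuclei, so nothing is read from its level there.

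LPA was compared with vehicle on UMIs summed per library, with edgeR's quasi-likelihood test over all genes that passed its filter, and a gene was called at an adjusted p under 0.05 and an absolute log2 fold change of at least 0.25. The 13 genes of the rule and mitochondrial genes were left out. In the selected nuclei, 103 of 14230 genes (0.724%) were called higher and 162 (1.14%) lower with LPA, and 2124 had an unadjusted p under 0.05. In the Slc1a2-rich selected nuclei, 70 of 10986 genes (0.637%) were called higher and 53 (0.482%) lower. The median log2 fold change over all genes was -0.004 in the former and -0.006 in the latter. LPA and vehicle libraries did not overlap in any of the 265 called genes of the selected nuclei. The same held for 122 of the 123 called genes of the Slc1a2-rich nuclei. Most called genes below were also named only if they did not overlap. For a called gene, a lack of overlap is therefore a description and adds no support to the call.

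The number of calls in the selected nuclei hung on single libraries. Without vehicle library 1 it was 992, with 686 of 14578 genes called higher and 306 lower, so that higher calls then outnumbered lower ones. Without vehicle libraries 2 and 3 it was 103 and 162. Without LPA libraries 1, 2 and 3 it was 99, 80 and 58. For the Slc1a2-rich nuclei it was 157 without vehicle library 1, and 53, 65 and 48 without LPA library 2, LPA library 3 and vehicle library 3.

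The calls in both sets of nuclei overlapped in part. Of the 103 higher genes, 92 were tested in the Slc1a2-rich nuclei, all 92 were above 0 there, and 24 were called. Of the 162 lower genes, 98 were tested there, 64 were below 0, and 12 were called. Since the subset is part of the selected nuclei, these counts are a description and not a second sample.

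Complement C4b was among the clearest changes. In the Slc1a2-rich selected nuclei its level was 90.2, 96.3 and 99.1 CPM in the LPA libraries and 52.8, 21.5 and 32.7 CPM in the vehicle libraries. All LPA libraries lay above all vehicle libraries, and the difference was 2.93-fold (log2 1.55, SE 0.19, adjusted p = 0.000195, edgeR). In all selected nuclei the fold was 3.07 (log2 1.62, SE 0.18, adjusted p = 0.00293). C4b (ENSMUSG00000073418) lies at chr17:34728380-34743882 on the minus strand of GRCm38, beside the close copy C4a, and reads that fit both copies cannot be assigned to either.

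C4b was seen in more nuclei, too. A C4b UMI was present in 18.1%, 19.6% and 19.9% of Slc1a2-rich selected nuclei with LPA and in 11.4%, 5.20% and 6.53% with vehicle, and in 1.63% to 3.64% of oligodendrocyte nuclei. Thinned to 1000 UMIs, these shares were 8.40%, 9.46% and 6.75% with LPA and 3.60%, 1.64% and 2.71% with vehicle, with no overlap.

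Ggta1, which adds the alpha-galactose cap to glycans, stood at 36.4, 40.5 and 32.3 CPM with LPA and 6.44, 12.8 and 6.68 CPM with vehicle in the Slc1a2-rich nuclei. The LPA libraries were all above the vehicle libraries, at 3.91-fold (log2 1.97, SE 0.26, adjusted p = 0.000202, edgeR). Ggta1, C4b and Fkbp5 were the 3 tested genes of a list of 13 genes described for neuroinflammatory reactive astrocytes, and Fkbp5 fell while the others rose. In all selected nuclei 8 of the 13 were tested, these 3 were called, and the other 5 were not and lay below 0 (median log2 fold change of the 8 tested genes -0.30), while 0.724% of all genes tested were called higher and 1.14% lower.

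Aspg, an asparaginase listed among genes of reactive astrocytes of any kind, was measured at 25.5, 26.4 and 16.9 CPM with LPA and 7.73, 2.90 and 4.46 CPM with vehicle. The groups did not overlap, and the fold was 5.11 (log2 2.35, SE 0.35, adjusted p = 0.000617, edgeR). Aspg was the 1 called gene among 6 tested of the 12 pan-reactive genes, where 0.637% of all genes tested were called higher. Among those that did not pass were Osmr, the oncostatin M receptor (log2 0.88, adjusted p = 0.0577), and Cd44, a hyaluronan receptor (log2 0.70, adjusted p = 0.268), both above 0, and Vim, the intermediate filament vimentin (log2 -0.56, adjusted p = 0.514), and Cp, the copper-binding ferroxidase ceruloplasmin (log2 -0.30, adjusted p = 0.804), both below 0. Serpina3n and Lcn2 were too low to be tested. These counts cover nuclei with little Gfap only. The rule left out Gfap-rich nuclei, which numbered 223, 213 and 223 in the LPA libraries and 46, 53 and 56 in the vehicle libraries.

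Stat3, the factor that carries cytokine signals of the gp130 family to the nucleus, had levels of 128, 143 and 162 CPM with LPA and 99.2, 86.5 and 88.4 CPM with vehicle in the Slc1a2-rich nuclei. The groups did not overlap (1.59-fold, log2 0.67, SE 0.12, adjusted p = 0.00291, edgeR), and over all selected nuclei Stat3 did not pass (log2 0.44, adjusted p = 0.0679). It was the 1 called gene of 7 tested in the list for this pathway, beside 0.637% of all genes tested. Il6st, the gp130 receptor itself, had a log2 fold change of 0.16 (adjusted p = 0.714), and Lifr one of -0.23 (adjusted p = 0.31).

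Slc38a1 and Gadl1 also rose. Slc38a1, a glutamine transporter, stood at 119, 116 and 95.5 CPM with LPA against 67.0, 47.0 and 33.4 CPM with vehicle in the Slc1a2-rich nuclei (2.35-fold, log2 1.23, SE 0.17, adjusted p = 0.000265, edgeR). It was not called over all selected nuclei, where its log2 fold change was 0.31 (adjusted p = 0.414). Gadl1, an enzyme related to glutamate decarboxylase that makes beta-alanine, stood at 18.9, 20.5 and 30.8 CPM against 6.44, 4.06 and 2.23 CPM (5.84-fold, log2 2.54, SE 0.36, adjusted p = 0.000407, edgeR). Both genes separated the groups without overlap.

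Few nuclei carried Gadl1. A UMI was present in 5.39%, 5.60% and 8.21% of Slc1a2-rich selected nuclei with LPA and in 1.96%, 1.08% and 0.576% with vehicle, against 0.325% or less in oligodendrocyte nuclei. Ide, the insulin-degrading enzyme, rose 1.74-fold (log2 0.80, SE 0.13, adjusted p = 0.00163, edgeR), and it also rose in oligodendrocyte nuclei (log2 0.61, adjusted p = 0.00844). Angpt1, the ligand of the endothelial receptor Tie2, stood at 140, 137 and 134 CPM with LPA and 72.2, 84.1 and 90.6 CPM with vehicle, a 1.64-fold rise (log2 0.71, SE 0.11, adjusted p = 0.00157, edgeR). The other genes of lowest adjusted p were St6galnac5, a sialyltransferase of gangliosides (log2 0.66), Cpne8 (0.96), Slc22a23 (0.60), Dpp10 (0.71) and C530044C16Rik (2.40). Each of the 12 higher genes was called in all 6 fits that left out 1 library.

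**Figure D3:**
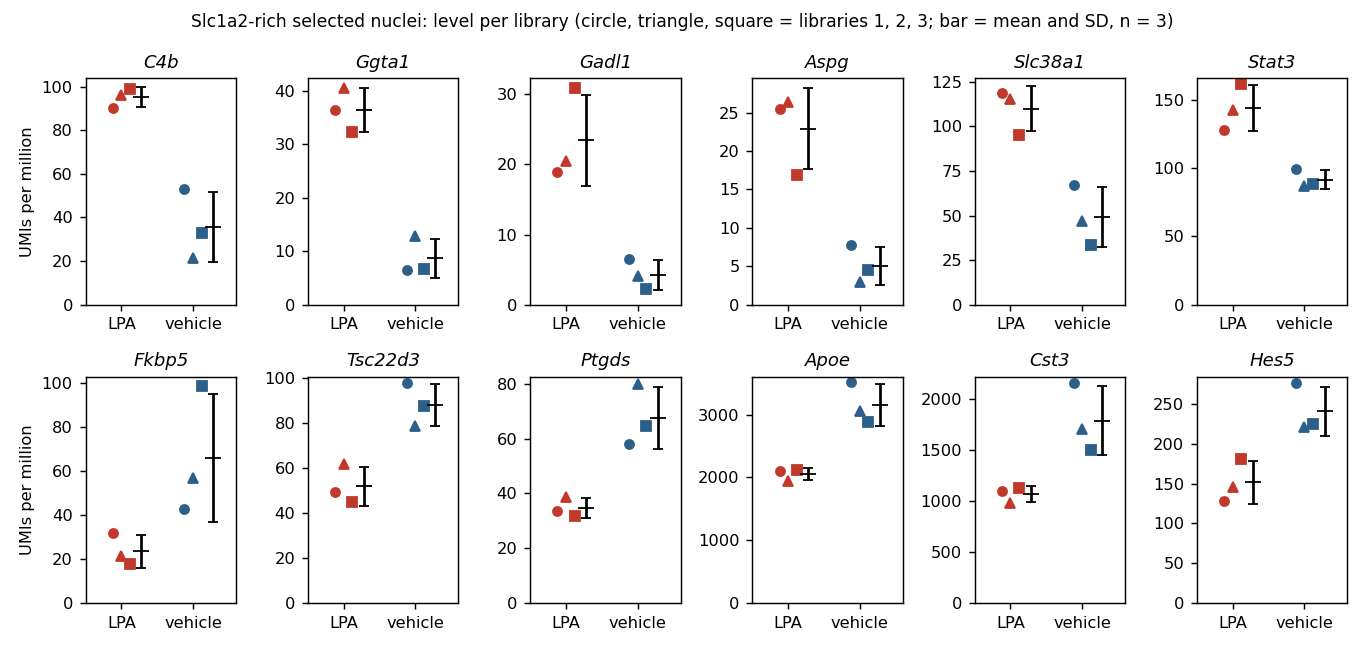
Level in CPM (y axes from 0) of 12 genes in the Slc1a2-rich selected nuclei, with circle, triangle and square for libraries 1, 2 and 3 of each group and a bar for mean and SD (n = 3). The 6 genes in the upper row are higher and the 6 in the lower row are lower in each LPA library than in any vehicle library.

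The strongest fall was that of Fkbp5, a co-chaperone of the glucocorticoid receptor that glucocorticoids induce. Over all selected nuclei its level was 77.6, 67.0 and 64.5 CPM with LPA and 220, 217 and 236 CPM with vehicle. The groups were far apart, and the difference was 3.22-fold (log2 -1.69, SE 0.09, adjusted p = 9.1e-05, edgeR), the lowest adjusted p of all 14230 genes. Fkbp5 (ENSMUSG00000024222) lies at chr17:28399094-28517527 on the minus strand.

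Fkbp5 was lower in both groups of the Slc1a2-rich nuclei, at 32.0, 21.1 and 17.6 CPM with LPA and 42.5, 56.9 and 98.8 CPM with vehicle (log2 -1.53, SE 0.24, adjusted p = 0.00157, edgeR). Other kinds of nuclei moved with it, since Fkbp5 fell in Slc6a11-Agt nuclei (log2 -1.36, adjusted p = 0.00539) and in oligodendrocyte nuclei (log2 -0.57, adjusted p = 0.0287). Oligodendrocyte nuclei had a Fkbp5 UMI in 21.5% to 27.9% of nuclei, more than the 4.73% to 19.8% of the Slc1a2-rich selected nuclei, so no difference is read from the share of nuclei.

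Of the other genes that glucocorticoids are known to induce, 3 more fell over all selected nuclei. Tsc22d3, also called Gilz, was measured at 51.6, 56.6 and 54.5 CPM with LPA and 93.9, 99.3 and 90.4 CPM with vehicle over all selected nuclei (log2 -0.80, SE 0.09, adjusted p = 0.00357, edgeR), without overlap. Zbtb16 (log2 -0.80, adjusted p = 0.0302) and Errfi1, an inhibitor of the EGF receptor (log2 -1.06, adjusted p = 0.0101), fell as well, but Zbtb16 was not called without LPA library 2 or 3 or vehicle library 2 or 3, nor Errfi1 without LPA library 1 or 3. In the list of 14 such genes all were tested, 4 were called lower and 0 higher, where 1.14% of all genes tested were called lower, 11 had a log2 fold change below 0, and the median was -0.39, where the median of all genes tested was -0.004. When 1 library was left out, 2 to 4 were called lower, 2 of them without LPA library 3.

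Of the 14 genes 13 were tested in the Slc1a2-rich nuclei, 3 were called lower (Fkbp5, Tsc22d3 and Zbtb16), where 0.482% of all genes tested were, 12 were below 0 and the median was -0.32. Of these 3 calls, 1 was left without LPA library 3 or vehicle library 3, and 2 without LPA library 2. Zbtb16 overlapped between the groups there, with 242 CPM in LPA library 1 and 232 CPM in vehicle library 2, and lost its call without LPA library 2 or 3 or vehicle library 3, as Tsc22d3 did without LPA library 3 or vehicle library 3. Nfkbia, an inhibitor of NF-kB (log2 -0.68, adjusted p = 0.0525), and Klf9 (log2 -0.32, adjusted p = 0.0664) did not pass, and Sgk1 stood above 0 (log2 0.59, adjusted p = 0.212). Nr3c1, the glucocorticoid receptor itself, had a log2 fold change of 0.01 over all selected nuclei (adjusted p = 0.982).

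**Figure D4:**
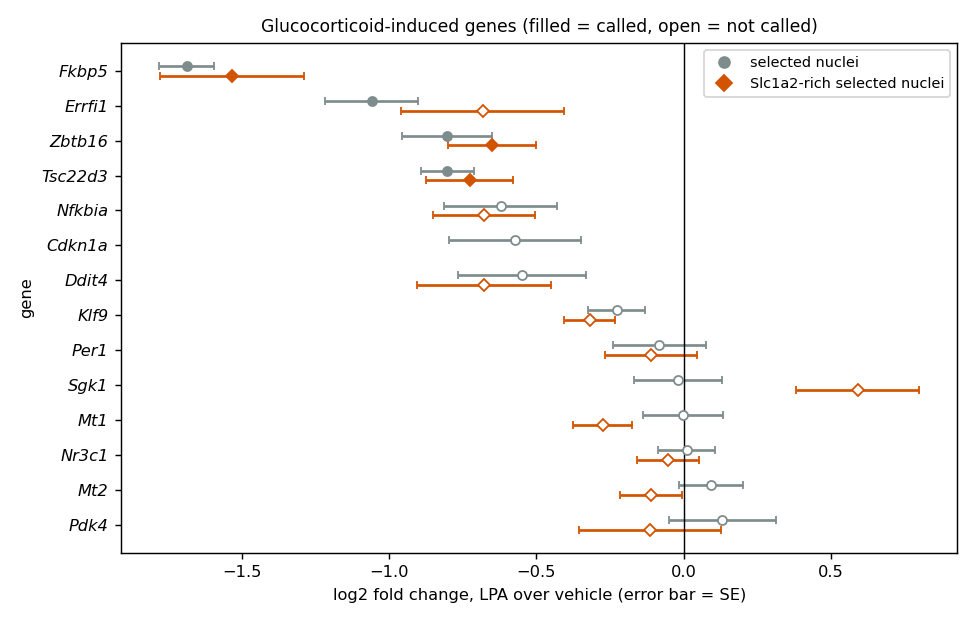
Log2 fold change of LPA over vehicle (x axis, error bar = SE) for 14 glucocorticoid-induced genes (y axis) in selected nuclei and Slc1a2-rich selected nuclei, with filled symbols for called genes. Fkbp5 lies farthest below 0, at -1.69 and -1.53, and Sgk1 is above 0 in the Slc1a2-rich nuclei.

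Of 12 tested genes of the lipoprotein and fatty acid list, 3 were called lower and 0 higher in the Slc1a2-rich nuclei, 4 were above 0 and the median log2 fold change was -0.10, while 0.482% of all genes tested there were called lower. Apoe, the main lipoprotein of brain, had a level of 2099, 1945 and 2123 CPM with LPA and 3525, 3060 and 2883 CPM with vehicle. Every LPA library was below every vehicle library (1.54-fold lower with LPA, log2 -0.62, SE 0.08, adjusted p = 0.000195, edgeR). Clu, a second lipoprotein (log2 -0.47, adjusted p = 0.0319), and Scd2, a desaturase of fatty acids (log2 -0.45, adjusted p = 0.0144), were called lower too.

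Cst3, the secreted protease inhibitor cystatin C, was at 1095, 985 and 1129 CPM with LPA and 2163, 1704 and 1499 CPM with vehicle (log2 -0.74, SE 0.10, adjusted p = 0.000265, edgeR). Its groups did not overlap, and it fell in Slc6a11-Agt nuclei as well (log2 -0.59, adjusted p = 0.0388). Ptgds, a prostaglandin synthase that meningeal cells and oligodendrocytes make in bulk, stood at 33.4, 38.8 and 31.6 CPM against 58.0, 80.1 and 64.6 CPM (log2 -0.99, SE 0.16, adjusted p = 0.00163, edgeR). Ptgds also fell in oligodendrocyte nuclei (log2 -0.96, adjusted p = 0.0129), and what part of this came from RNA outside the nuclei was not tested.

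Hes5, a target of Notch that keeps glial progenitors and astrocytes undifferentiated, had 128, 146 and 181 CPM with LPA and 277, 222 and 226 CPM with vehicle. The groups did not overlap (log2 -0.65, SE 0.11, adjusted p = 0.00293, edgeR). Hes5 was the 1 called gene of 8 tested in the Notch list, beside 0.482% of all genes tested that were called lower. In this list Notch1 had a log2 fold change of 0.03 (adjusted p = 0.956) and Hes1 one of 0.08 (adjusted p = 0.934). Over all selected nuclei Hes5 did not pass (log2 -0.38, adjusted p = 0.142).

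In the lists of gap junctions and end-feet, phagocytosis and ion transport, 1 of 8, 2 of 10 and 2 of 10 tested genes were called lower in the Slc1a2-rich nuclei, where 0.482% of all genes tested were. Gjb6, the gap junction protein connexin 30, had 103, 102 and 102 CPM with LPA and 156, 139 and 148 CPM with vehicle (log2 -0.51, SE 0.11, adjusted p = 0.0116, edgeR). Mertk (log2 -0.35, adjusted p = 0.0315) and Mfge8, which bridges phosphatidylserine to phagocytic receptors (log2 -0.51, adjusted p = 0.0071), were those of the phagocytosis list, and Atp1b2, a sodium pump subunit (log2 -0.43, adjusted p = 0.0172), and Ttyh1 (log2 -0.34, adjusted p = 0.038) those of the ion transport list. Leaving out LPA library 2 lost the call of Mertk, Mfge8, Atp1b2, Ttyh1, Gjb6, Clu and Scd2, and so did leaving out at least 1 other library for all of these but Mfge8 and Scd2.

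The other genes of lowest adjusted p that were lower in the Slc1a2-rich nuclei were Sparc, an extracellular matrix protein (log2 -0.65), Ptprj (-0.69), Rhou (-0.67), Mxd4 (-0.64), Lrrc58 (-0.57), Hacd2 (-0.47) and D030047H15Rik (-0.53). D030047H15Rik lies within Ttyh1 on the opposite strand. Of the 12 lower genes, 11 were called in all 6 fits that left out 1 library, and Mxd4 lost its call without vehicle library 3. Mobp, a myelin gene that marks oligodendrocytes, was called lower as well (log2 -0.56, adjusted p = 0.0151), with its call kept in 2 of the 6 fits that left out 1 library, and the oligodendrocyte list summed to 928, 1043 and 925 CPM with LPA and 1097, 1480 and 1267 CPM with vehicle, all 6 tested genes being below 0. Cldn11, another myelin gene, was called lower over all selected nuclei (log2 -0.59, adjusted p = 0.0437), with its call kept in 1 of the 6 fits that left out 1 library. The part of oligodendrocyte RNA in other falls was not tested.

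Grin2c and Hapln1 did not pass in the Slc1a2-rich nuclei, and nothing is read from Slc1a2 there, since its UMIs formed the subset. Grin2c stood in the Slc1a2-rich nuclei at 467, 434 and 430 CPM with LPA and 521, 450 and 471 CPM with vehicle (log2 -0.11, SE 0.09, adjusted p = 0.672, edgeR), and the libraries overlapped. Hapln1 had a log2 fold change of -0.15 there (SE 0.10, adjusted p = 0.572), and Slc1a2 one of 0.16 over all selected nuclei (SE 0.12, adjusted p = 0.569). The transmitter-handling list held 11 genes, of which only Slc38a1 was called, beside 0.637% of all genes called higher.

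Of the 12 genes of lowest adjusted p that fell over all selected nuclei, 6 were too low to be tested in the Slc1a2-rich nuclei, whose limits had removed nuclei with meningeal UMIs. Slc6a13, a GABA and taurine transporter of meningeal fibroblasts, stood at 28.9, 29.3 and 24.3 CPM with LPA and 83.8, 78.8 and 66.1 CPM with vehicle (log2 -1.47, SE 0.13, adjusted p = 0.0021, edgeR), without overlap. Tbx15, Slc9a2, Prdm6, Il34 and Tspan11 (log2 -0.87 to -1.60) were the other genes not tested in the subset. Sidt1, second to Fkbp5 in adjusted p among the genes that fell, stood at 42.4, 34.0 and 42.8 CPM with LPA and 104, 106 and 96.6 CPM with vehicle (log2 -1.36, SE 0.11, adjusted p = 0.00199, edgeR), without overlap, and had a log2 fold change of -0.12 in the subset (adjusted p = 0.939). Trabd2b (log2 -0.82) and Vtn (-1.52) had -0.41 (adjusted p = 0.784) and -0.53 (adjusted p = 0.591) in the subset. Vtn belongs to the pericyte list, whose 7 genes summed over all selected nuclei to 203, 197 and 194 CPM with LPA. With vehicle they summed to 226, 222 and 220 CPM, without overlap. Vtn was the 1 called gene of 5 tested in this list, where 1.14% of all genes tested were called lower. The part of pericyte RNA in other falls was not tested. Sh3pxd2a had a log2 fold change of -0.90 over all selected nuclei and of 0.68 in the subset (adjusted p = 0.445), and Tgfbr3, a TGF-beta co-receptor, -1.02 and 0.36 (adjusted p = 0.762).

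Meningeal RNA was also lower with LPA, and its part in the falls above was not tested. The 8 meningeal marker genes summed to 659, 648 and 596 CPM over all selected nuclei with LPA and to 1191, 1121 and 1062 CPM with vehicle, with Bmp6 giving the most UMIs, and 6 of the 8 were called lower (median log2 fold change -0.95), among them Slc47a1 (-0.84, adjusted p = 0.00315) and Col1a1 (-1.22, adjusted p = 0.00696), where 1.14% of all genes tested were called lower. In the Slc1a2-rich nuclei the sums were 172, 160 and 159 CPM against 168, 183 and 192 CPM, with most of each sum from Ranbp3l, which the subset's limits did not use, none of the 8 genes was at 0 in every library, and 0 of 4 tested were called, which the limits of the subset could set. Col1a2, a collagen of fibroblasts, was still lower in every LPA library of the subset, at 17.5, 14.7 and 18.4 CPM against 25.8, 20.3 and 23.02 CPM (log2 -0.43, adjusted p = 0.477, edgeR), and did not pass. In oligodendrocyte nuclei 4 of the 8 were called lower, where 0.32% of 15957 genes were called higher and 0.282% lower. Of the genes that fell over all selected nuclei, Slc6a13 (log2 -1.13), Tgfbr3 (-0.84), Vtn (-0.76) and Prdm6 (-0.68) were called lower in oligodendrocyte nuclei too, whereas Slc9a2 (-0.11) and Sh3pxd2a (-0.22) were among those not called there.

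Among genes called higher over all selected nuclei, Rfx4, a factor of neural progenitors and astrocytes that controls genes of cilia, was at 309, 317 and 298 CPM with LPA and 190, 196 and 197 CPM with vehicle (log2 0.66, SE 0.07, adjusted p = 0.00292, edgeR). Its groups did not overlap, and in the Slc1a2-rich nuclei its log2 fold change was 0.31 (adjusted p = 0.0695). Cdc20b, a gene of multiciliated cells, stood at 49.3, 28.3 and 41.5 CPM against 0.0, 3.14 and 3.22 CPM (log2 4.04, SE 0.42, adjusted p = 0.00292, edgeR) and was too low to be tested in the subset. The 7 ependymal genes all had log2 fold changes above 0 over all selected nuclei, with a median of 0.79, and 0 were called, but without vehicle library 1 all 7 were called higher, with a median of 1.69, in a fit that called 4.71% of 14578 genes higher and 2.1% lower. Their sum was 1305, 642 and 943 CPM with LPA and 1115, 324 and 268 CPM with vehicle, vehicle library 1 being the only vehicle library that overlapped the LPA libraries. The part of these genes in the rise of Rfx4 and Cdc20b was not tested.

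The remaining genes of lowest adjusted p that were higher over all selected nuclei were Mir670hg (log2 0.80), Wwc1, the scaffold KIBRA (0.70), Frem2 (0.68), Gm4876 (0.61), Tnfrsf19 (0.57) and Bcl2, an inhibitor of apoptosis (0.49). All 6 were above 0 in the Slc1a2-rich nuclei, at 0.31 to 0.59, where Mir670hg, Wwc1, Frem2 and Bcl2 were called. Without LPA library 3, Wwc1, Tnfrsf19 and Bcl2 were not called over all selected nuclei, and without LPA library 2 Bcl2 was not. The astrocyte transcription factors Npas3 (log2 0.46, adjusted p = 0.0397) and Rorb (0.52, adjusted p = 0.0419) were called over all selected nuclei, lost the call when any 1 of the LPA libraries or vehicle library 3 was left out (Npas3 also without vehicle library 2), and were not called in the subset (0.20 and 0.26). The forebrain factor Nr2e1 was called higher over all selected nuclei too (log2 0.59, adjusted p = 0.0451), kept its call in 1 of the 6 fits that left out 1 library, and had 0.34 in the subset (adjusted p = 0.341).

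**Figure D5:**
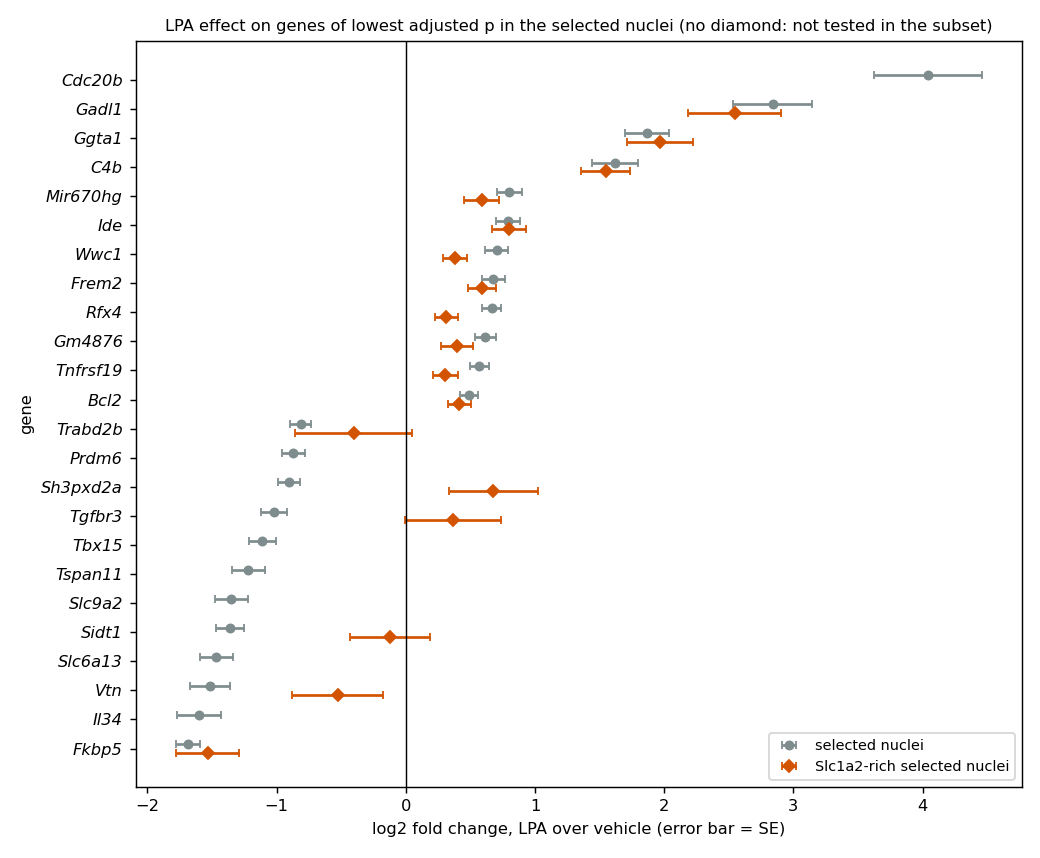
Log2 fold change of LPA over vehicle (x axis, error bar = SE) of the 12 higher and 12 lower genes of lowest adjusted p in the selected nuclei (y axis), beside the value in Slc1a2-rich selected nuclei where tested. Among the higher genes both values lie above 0, whereas Sh3pxd2a and Tgfbr3 lie on opposite sides of 0.

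Of the receptors and enzymes of LPA itself, none of those tested was called over all libraries. Lpar2, Lpar5 and Plpp2 were too low to be tested, as was Lpar3 in the Slc1a2-rich nuclei. Lpar1, a receptor for LPA, had 62.1, 64.5 and 48.0 CPM with LPA and 92.2, 78.0 and 74.6 CPM with vehicle over all selected nuclei (log2 -0.48, SE 0.13, adjusted p = 0.119, edgeR). Its libraries did not overlap, and in the Slc1a2-rich nuclei its log2 fold change was 0.22 (adjusted p = 0.773). Plpp3, a phosphatase that degrades extracellular LPA, stood at 1614 CPM with LPA and 1604 CPM with vehicle in the Slc1a2-rich nuclei. Of the 10 genes of this list, 7 were tested over all selected nuclei and 6 in the subset, with 0 called in either. Over all selected nuclei 0.724% of all genes tested were called higher and 1.14% lower, and in the subset 0.637% and 0.482%. Without vehicle library 1, 1 gene of the list was called higher over all selected nuclei, in a fit that called 4.71% of 14578 genes higher. Nothing is read about the list from these counts.

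Over all 6 libraries, Slc6a11-Agt nuclei responded with fewer calls, and no gene passed the test of a different response. In them 21 of 14100 genes (0.149%) were called higher and 33 (0.234%) lower. A test of the difference of the LPA effect between both kinds of nuclei called 0 of 14876 genes higher (0.0%) and 0 lower (0.0%) by edgeR's quasi-likelihood test, with 919 genes at an unadjusted p under 0.05, and DESeq2 also called 0, with 136 genes at an unadjusted p under 0.05. The count was not stable: edgeR called 107 genes without vehicle library 1, 99 with no filter on low counts, 36 with no limit on Gfap and 29 without Scrublet calls. It called 1 without nuclei carrying 2 or more UMIs over a list of another cell type.

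Side by side, C4b had a log2 fold change of 1.62 in selected and 1.08 in Slc6a11-Agt nuclei, and the difference did not pass (0.54, SE 0.19, adjusted p = 0.752, edgeR). Gadl1 had 2.84 and 0.96, with a difference of 1.88 (SE 0.45, adjusted p = 0.378). The genes of lowest p with a more negative log2 fold change in selected nuclei were Ildr2 (-0.61 against 0.00) and Ust, a sulfotransferase of matrix glycans (-0.58 against 0.04), both with an adjusted p of 0.114. With a more positive one they were Prune2 (0.74 against -0.06, adjusted p = 0.265) and Galnt14 (0.81 against -0.04, adjusted p = 0.312). The next 4 in each direction were Sned1, Gm29683, Il17ra and Spp1, and Mok, Sema3e, Syt9 and Cdk5rap2, at adjusted p of 0.165 to 0.312.

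The share of selected nuclei overlapped between the groups when counted over all nuclei and was lower in every LPA library when counted over astrocytes. Of all nuclei past the filters, they made up 8.36%, 7.75% and 7.75% with LPA and 6.99%, 7.90% and 7.87% with vehicle, a difference of 0.371 percentage points (two-sided exact permutation test, p = 0.6). The overlap ended with 5 or more UMIs of the astrocyte genes, at 5.16%, 4.93% and 5.13% with LPA against 3.88%, 4.68% and 4.34% with vehicle (0.776 points, exact permutation test, p = 0.1), and with no limit on Gfap (2.27 points, exact permutation test, p = 0.1). Of the 11209 nuclei that met the astrocyte limits before the Gfap and Slc6a11 limits, they made up 38.6%, 38.9% and 40.1% with LPA and 41.4%, 46.7% and 46.3% with vehicle. All LPA libraries were lower, by 5.65 percentage points on average (exact permutation test, p = 0.1, the smallest that 3 against 3 libraries allow).

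The direction of this difference changed with the limits. Nuclei that met the other limits but had 2 or more Gfap UMIs numbered 223, 213 and 223 in the LPA libraries and 46, 53 and 56 in the vehicle libraries, and when they were counted in, the share of astrocyte nuclei was higher with LPA by 3.21 percentage points (exact permutation test, p = 0.1). With all limits applied after thinning to 1000 UMIs a nucleus, the share was higher with LPA by 1.55 points (exact permutation test, p = 0.6). With 5 or more UMIs of the astrocyte genes the difference was -2.95 points, and in the Slc1a2-rich nuclei -3.63 points. The libraries of both groups overlapped in each (exact permutation test, p = 0.4 for both). Gfap was used to select the nuclei, so its level among them was not tested.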

How the data were processed

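Nuclei of 6 brains, 3 injected with LPA and 3 with vehicle, were captured with the 10x 3′ v3 chemistry. The authors aligned reads with Cell Ranger 4.0.0 to mm10 with a pre-mRNA annotation, so that intronic reads count, and deposited filtered matrices of UMI counts per gene and barcode, with no normalization. Libraries held 48852970 to 65688644 UMIs in 8639 to 12894 barcodes.

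Barcodes with at least 300 genes and at most 1% mitochondrial UMIs were kept, and members were found by the limits given above. The members and the 40 gene lists were chosen with earlier results of these data known. The Slc1a2-rich subset was chosen after seeing the data. The study's integration, clustering and label transfer were not repeated. Doublets were scored per library with Scrublet (scanpy 1.11.5, expected rate 8%), and marked nuclei were kept except in the subset and in 1 alternative.

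Counts were summed per library over the nuclei of a kind and tested with edgeR 4.0.16 (R 4.3.3; filterByExpr, TMM, quasi-likelihood F test, Benjamini-Hochberg adjustment over all genes tested, limma 3.58.1), with libraries as replicates. The difference between kinds of nuclei was an interaction term with the library as a block. DESeq2 1.42.0 was an alternative. Other alternatives were size-factor scaling, no filter, a replicate block, sex as a term, each library left out, stricter or wider limits on the nuclei, thinning to 1000 UMIs and removal of nuclei with UMIs of other cell types. That removal took out nuclei with 2 or more UMIs over the shorter neuronal list or over any 1 of the other full lists. It left 1548 selected nuclei, so it was stricter than the level of 3 UMIs used for the shares of nuclei. The scripts were tested on simulated data. Tables used numpy 2.4.6, pandas 2.3.3 and scipy 1.17.1.

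Genes were named by rule: the 12 called genes of lowest adjusted p in each direction whose libraries did not overlap, up to 4 called genes per list and direction, the 4 markers, 6 genes in each direction for the interaction, and genes of the regional lists, of which 1 is not reported here. Other list members named were chosen after their values were seen. Rule genes and mitochondrial genes were not tested. Sex-linked marker genes stayed in the tests, the adjustment and the counts of calls, and were only not named. Adjusted p-values come from tests that set the LPA difference against the spread between the 3 mice of a group. That spread is estimated in part across genes. Gene positions are those of GENCODE vM21 (GRCm38).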

Additional observations from a re-analysis of the deposited data

How the results depend on the processing

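The 265 calls in the selected nuclei became 510 with no filter on low counts, 61 with 5 or more UMIs of the astrocyte genes, 820 with no limit on Gfap and 174 with no Slc6a11 or Agt UMI. They became 71 without nuclei carrying UMIs of other cell types, which here means 2 or more over a list and left 1548 nuclei. They became 111 after thinning to equal numbers of nuclei and UMIs, 123 in the Slc1a2-rich nuclei, and 58 to 992 when 1 library was left out. DESeq2 gave 295, size-factor scaling 264, sex as a term 262 and removal of Scrublet calls 229. The 123 calls in the Slc1a2-rich nuclei became 78 with DESeq2 and 48 to 157 when 1 library was left out. Of the genes named for the Slc1a2-rich nuclei, 12 were weaker with DESeq2 and 26 the same. Of those named for the selected nuclei, 19 were weaker and 26 the same with 5 or more UMIs of the astrocyte genes. After thinning 14 were weaker and 29 the same. Without nuclei carrying UMIs of other cell types 12 were the same, 12 weaker and 4 reversed. In the Slc1a2-rich nuclei 14 were the same, 15 weaker, 5 reversed and 1 stronger. The difference between kinds of nuclei, with 0 calls, gave 99 with no filter, 36 with no limit on Gfap, 1 without nuclei carrying UMIs of other cell types, 29 without Scrublet calls and 0 to 107 when 1 library was left out. Causes were not tested.

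The share of astrocyte nuclei turned from -5.65 to 1.55 percentage points after thinning and to 3.21 with no limit on Gfap, and lay between -7.34 and -4.71 when 1 library was left out. It was -2.95 with 5 or more UMIs of the astrocyte genes and -3.63 in the Slc1a2-rich nuclei. Without nuclei carrying UMIs of other cell types it was -4.97. In these settings the groups overlapped. The share of all nuclei turned from 0.371 to -0.081 without nuclei carrying UMIs of other cell types, was 2.27 with no limit on Gfap, 0.776 with 5 or more UMIs of the astrocyte genes, 0.733 in the Slc1a2-rich nuclei, 0.672 without Scrublet calls and 0.232 with no mitochondrial filter, and lay between 0.073 and 0.528 when 1 library was left out. In the Slc1a2-rich nuclei Sh3pxd2a turned to a log2 fold change of 0.68 and Tgfbr3 to 0.36 (0.10 without nuclei carrying UMIs of other cell types). Of the markers not called (Grin2c, Hapln1 and Slc1a2, selected nuclei), Grin2c turned to -0.064 with no limit on Gfap, Grin2c, Slc1a2 and Hapln1 to -0.18, -0.026 and -0.16 without nuclei carrying UMIs of other cell types and to -0.11, -0.047 and -0.15 in the Slc1a2-rich nuclei, and Hapln1 to -0.035 with sex as a term and -0.029 without Scrublet calls. When 1 library was left out, Hapln1 lay between -0.053 and 0.123 in the selected nuclei, and Slc1a2 between -0.083 and 0.008 in the Slc1a2-rich nuclei. Nothing is read from the Slc1a2 values of the Slc1a2-rich nuclei, since the same UMIs formed that subset.

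Whether replicate numbers pair the samples was not settled, and the main fits had no term for them. In the selected nuclei, deviations of same-numbered libraries correlated at 0.225, 0.236 and -0.067. Those of differently numbered libraries correlated at -0.3 to 0.098. With the replicate block 651 genes were called in the selected nuclei and 196 in the Slc1a2-rich nuclei. Genes with few UMIs per library could not be tested in the Slc1a2-rich nuclei, and intervals for single libraries cover counting error only.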

Other observations

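Several gene groups of astrocytes had no called gene in either set of selected nuclei in the fits over all 6 libraries. All 14 tested transmitter receptors, 8 matrix proteoglycans, 17 synapse-organizing genes, 16 sterol synthesis genes, 11 glucose and lactate genes and 14 clock genes of the selected nuclei missed the test. Of all genes tested there, 0.724% were called higher and 1.14% lower, and in the Slc1a2-rich nuclei 0.637% and 0.482%. At such shares lists of this size would hold few calls or none, so nothing is read from their absence. Without vehicle library 1, 1 clock gene and 1 transmitter receptor gene were called higher and 1 synapse-organizing gene lower over all selected nuclei, and without LPA library 3 or vehicle library 2, 1 synapse-organizing gene was called higher in both sets. The fit without vehicle library 1 called 4.71% of 14578 genes higher and 2.1% lower over all selected nuclei. Nothing is read about these lists from such single calls. Of the sterol genes 15 of 16 were above 0 (median log2 fold change 0.18), and in the Slc1a2-rich nuclei the median was 0.04. All 10 tested genes of the FGF and MAPK list were below 0 in the Slc1a2-rich nuclei, with a median of -0.14 and 0 called. Interferon-induced genes were mostly too low to test, with 6 of 14 tested over all selected nuclei and 0 called (edgeR).

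Some list genes were called over all selected nuclei and were not tested or not called in the Slc1a2-rich nuclei. Top2a, a gene of dividing cells, had 9.20, 5.03 and 7.14 CPM with LPA and 0.838, 1.05 and 1.76 CPM with vehicle (log2 2.48, adjusted p = 0.0151, edgeR), and lost its call without LPA library 1, LPA library 3 or vehicle library 2. Ccn1, a target of Yap and Tead, had a log2 fold change of 1.19 (adjusted p = 0.0172) over all selected nuclei and of 0.96 (adjusted p = 0.0512) in the Slc1a2-rich nuclei, and its call was lost in 5 of the 6 fits that left out 1 library. Bmp4 (-0.91), Ndrg1, a hypoxia-induced gene (-1.05), and Sphk1, a sphingosine kinase (-1.51), were called lower and too low to test in the subset. Bmp4 lost its call without LPA library 3, Ndrg1 without any 1 of the LPA libraries, and Sphk1 without LPA library 1 or 3 or vehicle library 2 or 3.

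Nuclei that met the other limits but had 2 or more Gfap UMIs, which the rule left out, were also compared. In these 814 nuclei C4b had a log2 fold change of 0.88 (adjusted p = 0.0363, edgeR), Ggta1 1.25 (adjusted p = 0.00753), Gadl1 4.10, Aspg 2.27 and Apoe -0.96. The vehicle libraries held 46, 53 and 56 such nuclei. Gfap-rich nuclei were selected on a gene that reactive astrocytes induce, so their levels do not compare like with like between groups.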
